A study of Danio rerio with 6 samples.

Results

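This section follows 10 genes of fibroblast growth factor (FGF) signalling in zebrafish embryos at shield stage, chosen by symbol: the ligands fgf3, fgf8a, fgf17 and fgf24, the feedback inhibitors spry2, spry4, dusp6 and il17rd, and the transcription factors etv4 and etv5b. The symbol table matched them to 11 of the 32099 Ensembl genes in the count tables, because it gives the symbol FGF8 to a pair of identifiers and does not say which of them is fgf8a. Both are therefore given by identifier. Of the 11, 10 passed the filter on low counts, with mean counts of 393.5 or more, and entered a test of 15309 Ensembl genes.

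All embryos were wild-type fish of the Tübingen strain. Zygotes were injected with 4.5 ng of a translation-blocking Morpholino (FZNF MO) designed against the start sites of most fish N-terminal zinc finger genes (FZNFs), or with the same dose of a randomized Morpholino mixture (scrambled MO). There was no uninjected group. Whole embryos were pooled at 6 h for strand-specific poly(A) RNA-seq, in 3 injection pairs of 1 FZNF MO and 1 scrambled MO library each, pairs 1 and 2 being collected on 12 May and pair 3 on 17 May. Each library is 1 pool, so that the tests set a difference against variation between pools and not between embryos. edgeR estimates that variation partly from other genes, so an SE is not the spread of a gene's own 3 pairs. Fewer cells of a type cannot be told apart from less RNA per cell.

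FGF ligands are secreted from the blastoderm margin, the ring of cells that gives rise to mesoderm and endoderm, and bind receptor tyrosine kinases that act through Ras and the kinases Raf, MEK and ERK. ERK activity switches on the ETS factors etv4 and etv5b together with inhibitors of the same pathway, among them Sprouty proteins, the ERK phosphatase encoded by dusp6 and the membrane protein encoded by il17rd, also known as sef. The transcript levels of these targets are widely used to read out FGF signalling in the gastrula, where the pathway maintains mesodermal T-box genes.

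Libraries summed to between 16306069 and 20567549 counts. The 11 rows together summed to between 1014 and 1251 CPM with the FZNF MO and to between 1144 and 1194 CPM with the scrambled MO, so the groups overlapped. CPM are counts divided by the library total, scaled by TMM (trimmed mean of M-values) factors, and are not corrected for gene length. Transcripts of the FZNFs made up 0.713% to 1.21% of counts with the FZNF MO and 0.476% to 0.554% with the scrambled MO. A translation blocker acts on protein synthesis, so these shares do not check the knockdown. The tissue was checked on marker lists. All 11 margin marker rows, all 7 matched dorsal rows and all 10 enveloping layer rows passed the count filter. Margin markers summed to 939.6 to 1417 CPM with the FZNF MO and to 964.5 to 1093 CPM with the scrambled MO. The row with the highest level was tbxta in each library, at 433.4 to 846.7 CPM. Of these rows 1 was called higher, gata5, an endoderm regulator, at 0.56 on the log2 scale (edgeR adjusted p = 0.0345), though its groups overlapped. Both wnt8a rows, at -0.59 and -0.76, were lower in 3 of 3 pairs but were not called (edgeR adjusted p = 0.0749 and 0.0507). Dorsal markers summed to 416.4 to 678.8 CPM with the FZNF MO and to 462.4 to 580.4 CPM with the scrambled MO, with foxa2, a gene of the axial midline, called lower at -0.78 (edgeR adjusted p = 0.0353). Enveloping layer markers summed to 10150 to 11030 and 10010 to 11620 CPM. Of the 12 tested genes that rise during gastrulation, 3 were called lower (tbx6, msgn1 and myf5), beside 2.28% of Ensembl genes. An unadjusted edgeR p under 0.05, in either direction, was found for 8 of the 12, beside 19.1% of Ensembl genes. In 5 of the 12 the groups did not overlap, beside 16.6% of Ensembl genes. The list's median log2 fold change was -0.44, against -0.02 over all Ensembl genes tested. In pairs 1, 2 and 3 the list's median was -0.48, -0.70 and -0.01, and 3 of the 12 genes had positive log2 fold changes. Of 8 maternal and blastula genes, 1 was called higher (pou5f3) and 1 called lower (h1m), beside 2.38% and 2.28% of Ensembl genes. In h1m the groups overlapped. The calls of gata5, foxa2, myf5, pou5f3 and h1m were not followed through the alternative fits.

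None of the 10 tested members passed the test. A gene was called where edgeR's quasi-likelihood test, with the injection pair as a block, gave a p below 0.05 after Benjamini-Hochberg adjustment over all features and the log2 fold change was 0.32 or more in either direction. By this rule 4.66% of Ensembl genes were called, and the share depended on the fit. It was 2.8% without pair 1, 0.42% without pair 2, 0.372% without the block and 0.3% with the collection day as the block. No member had an unadjusted p under 0.05, where 19.1% of Ensembl genes had one, and DESeq2, with the same block, also called 0 members, beside 6.68% of Ensembl genes. In no member did the levels of the groups separate, as they did in 16.6% of Ensembl genes. Of the 10 members, 4 had positive and 6 negative log2 fold changes, with a median of -0.03.

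**Figure D1:**
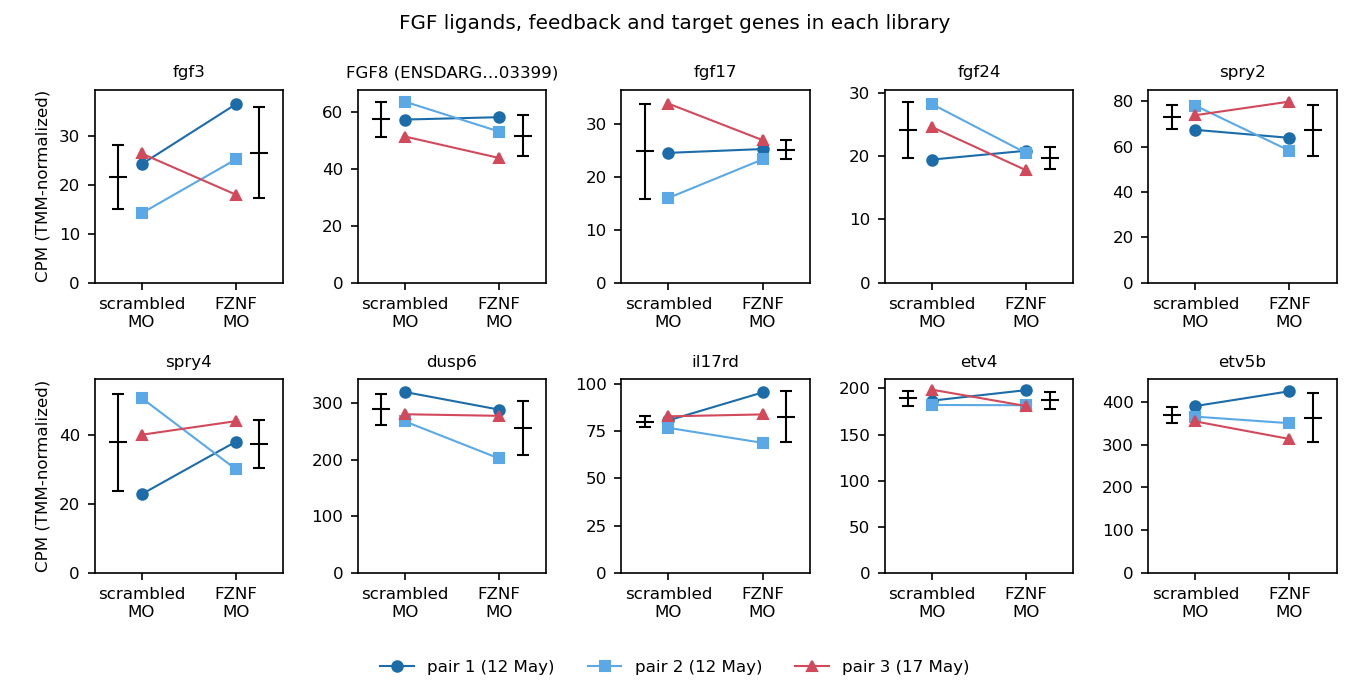
Levels of the 10 tested members in TMM-normalized CPM (vertical axes, each from 0) in scrambled MO and FZNF MO libraries. Coloured lines join the libraries of 1 injection pair, and black bars give the mean ± SD of 3 libraries. In every panel the range of the FZNF MO libraries overlaps that of the scrambled MO libraries, and in fgf3 the lines of pairs 1 and 2 climb while that of pair 3 descends.

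Among the ligands, fgf3, which with fgf8 patterns the hindbrain and induces the ear in zebrafish, was measured at 36.5, 25.2 and 18.1 CPM in FZNF MO replicates 1, 2 and 3 and at 24.3, 14.2 and 26.5 CPM in scrambled MO replicates 1, 2 and 3. The FZNF MO library was thus the higher one in pairs 1 and 2 and the lower one in pair 3. The means were 26.6 ± 9.30 and 21.7 ± 6.52 CPM (SD, n = 3 each). For fgf3 the estimated difference, FZNF MO over scrambled MO on the log2 scale, was 0.29 (SE 0.24, 95% interval -0.24 to 0.83, edgeR adjusted p = 0.559).

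Within the pairs the log2 ratio of fgf3 was 0.59, 0.82 and -0.55. Without pair 3 the gene was called higher, at 0.72 on the log2 scale (SE 0.20, edgeR adjusted p = 0.0238), in a fit that called 11.7% of Ensembl genes. Without pair 2 the log2 fold change was 0.04. The difference of the effect between the collection days was then tested in edgeR, a test chosen after these values were seen, with the effect in pairs 1 and 2 set against that in pair 3. For fgf3 the effect was lower on 17 May by 1.26 on the log2 scale (log2 difference -1.26, SE 0.36, unadjusted p = 0.00232, adjusted p = 0.198). It did not pass, and 0.0653% of Ensembl genes did. The second day holds a single pair, so day and pair cannot be told apart.

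The tested FGF8 row (ENSDARG00000003399) was at 58.1, 53.1 and 43.8 CPM in FZNF MO replicates 1 to 3 and at 57.3, 63.6 and 51.4 CPM in the scrambled MO replicates. Fgf8 is the ligand of the margin whose loss in zebrafish mutants disturbs the midbrain-hindbrain boundary. Its pair 1 libraries were nearly equal, and the FZNF MO library was lower in pairs 2 and 3. The means of this FGF8 row were 51.7 ± 7.26 and 57.4 ± 6.11 CPM (SD, n = 3 each). Its estimate was -0.16 on the log2 scale (SE 0.13, 95% interval -0.45 to 0.14, edgeR adjusted p = 0.573). The other FGF8 row (ENSDARG00000039615) had 2, 1 and 0 counts with the FZNF MO and 0, 0 and 9 counts with the scrambled MO. In the 3 libraries with no count, a count of 0 allows a level of up to 3 counts or 0.158 to 0.18 CPM, which covers counting error only. This row did not pass the filter on low counts, and no fold is given for it.

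fgf17, a ligand of the Fgf8 subfamily, was at 25.3, 23.4 and 27.0 CPM in FZNF MO replicates 1 to 3 and at 24.6, 16.1 and 33.9 CPM in the scrambled MO replicates. The lowest and the highest value were both in scrambled MO libraries, so that the controls enclosed the FZNF MO libraries. On the log2 scale fgf17 was estimated at 0.08 (SE 0.19, 95% interval -0.34 to 0.50). fgf24, another ligand of that subfamily, which acts in posterior mesoderm and is required for the pectoral fin, was at 20.8, 20.5 and 17.8 CPM with the FZNF MO and at 19.4, 28.2 and 24.6 CPM with the scrambled MO. The FZNF MO library was lower in pairs 2 and 3 and slightly higher in pair 1. For fgf24 the estimate was -0.28 (SE 0.19, 95% interval -0.68 to 0.13, edgeR adjusted p = 0.456).

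In the feedback inhibitors the levels of the groups likewise overlapped, and none was called. spry2, a Sprouty protein that dampens receptor tyrosine kinase signalling, was at 63.9, 58.2 and 79.8 CPM in FZNF MO replicates 1 to 3 and at 67.4, 78.1 and 73.9 CPM in the scrambled MO replicates. Its highest and lowest values both belonged to FZNF MO libraries. For spry2 the estimate was -0.13 (SE 0.14, 95% interval -0.43 to 0.17). spry4, the Sprouty paralogue that in zebrafish is induced by Fgf8 and Fgf3 and antagonizes them, was at 38.0, 30.1 and 44.0 CPM with the FZNF MO and at 22.8, 50.8 and 40.1 CPM with the scrambled MO.

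In spry4 the direction changed from pair to pair, with log2 ratios of 0.74, -0.75 and 0.14. The scrambled MO libraries alone differed by 2.23-fold between the lowest and the highest, more than any other tested member. Its log2 fold change was 0.04 (SE 0.23, 95% interval -0.47 to 0.55), and among the 10 members its interval was, after that of fgf3, the widest. Without pair 1 the log2 fold change was -0.31 and without pair 2 it was 0.45, neither of them called.

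dusp6, which encodes a phosphatase that inactivates ERK, was the one member with the same direction in 3 of 3 pairs, a property of 42.5% of Ensembl genes. It was at 289, 202 and 278 CPM in FZNF MO replicates 1 to 3 and at 320, 268 and 281 CPM in the scrambled MO replicates. FZNF MO replicate 2 was the lowest library, and the pair 3 libraries were almost level. The means were 257 ± 47.1 and 290 ± 27.1 CPM (SD, n = 3 each). For dusp6 the log2 fold change was -0.19 (SE 0.11, 95% interval -0.43 to 0.05, edgeR adjusted p = 0.377), with the smallest p of the 10. il17rd, an inhibitor of receptor signalling at the membrane, was at 95.7, 68.9 and 84.0 CPM with the FZNF MO and at 80.8, 76.9 and 83.0 CPM with the scrambled MO. The controls lay within a range of 1.08-fold and the FZNF MO libraries within 1.39-fold around them. On the log2 scale il17rd was estimated at 0.04 (SE 0.12, 95% interval -0.24 to 0.31).

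Of the ETS transcription factors, etv4 was at 198, 182 and 181 CPM in FZNF MO replicates 1 to 3 and at 187, 182 and 199 CPM in the scrambled MO replicates. All 6 libraries thus fell between 181 and 199 CPM. For etv4 the log2 fold change was -0.02 (SE 0.10, 95% interval -0.25 to 0.21, edgeR adjusted p = 0.952). etv5b was at 425, 350 and 313 CPM with the FZNF MO and at 390, 366 and 354 CPM with the scrambled MO. The FZNF MO libraries spread on both sides of the controls, above them in pair 1 and below them in pairs 2 and 3. For etv5b it was -0.04 (SE 0.10, 95% interval -0.26 to 0.19, edgeR adjusted p = 0.877).

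**Figure D2:**
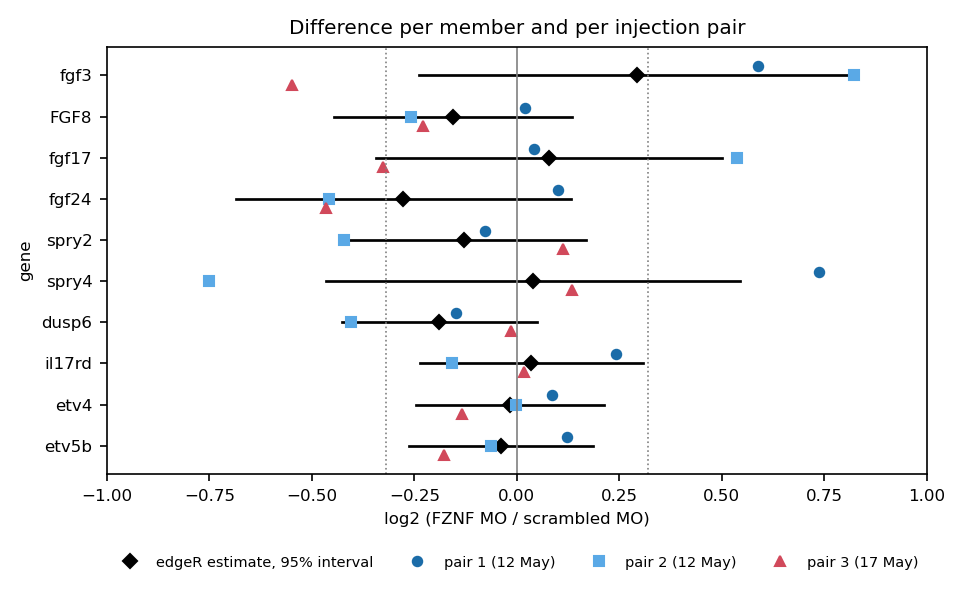
Log2 ratio of FZNF MO to scrambled MO (horizontal axis) for the 10 tested members. Diamonds with lines give the edgeR estimate and its 95% interval, coloured symbols the ratio within each injection pair, and dotted lines the fold threshold of 0.32. Every interval crosses 0, those of il17rd, etv4 and etv5b stay within the dotted lines, and the pairs are farthest apart in fgf3 and spry4.

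The intervals hold for the main edgeR fit, with the injection pair as a block and variation estimated partly from other genes. For il17rd, etv4 and etv5b, 3 of the 10 members, the whole 95% interval lay within the fold threshold of 0.32 in either direction, as it did for 10.2% of 6389 Ensembl genes with a mean count of at least 250. For all 10 members it lay within 1 in either direction, as for 92.1% of those genes. Changes of 0.32 to 0.83 in fgf3, or of -0.32 to -0.68 in fgf24, are not excluded. The intervals of the tested FGF8 row, fgf17, spry2, spry4 and dusp6 also passed the threshold, that of dusp6 reaching -0.43. The bounds depend on the fit. Without pair 2, il17rd was at 0.14 with an SE of 0.18, against 0.04 and 0.12 in the main fit. The tests therefore do not show that any member stayed the same.

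Variation between control pools differed among the members. In the scrambled MO libraries the coefficient of variation was 37.3% for spry4, 35.9% for fgf17 and 30.1% for fgf3, and 3.87% for il17rd, 4.53% for etv4 and 4.97% for etv5b. Counting error alone amounts to 4.79% for fgf3 and 1.72% for etv4 at their mean counts. In the FZNF MO libraries the coefficient was highest for fgf3, at 35%, and lowest for etv4, at 5.2%. fgf3 thus varied widely between pools of either group, whereas fgf17 varied by 7.24% with the FZNF MO and il17rd by 16.2%.

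Profiles over the 6 libraries were compared by the root mean square difference of log2 CPM, each gene being centred on its own mean. The closest were il17rd and etv4, at 0.11, then the tested FGF8 row and etv5b, at 0.11, and the ETS paralogues etv4 and etv5b, at 0.11. This measure is small whenever both genes vary little, so a small value does not show that they vary together. The farthest apart were fgf3 and spry4, at 0.69. The Sprouty paralogues spry2 and spry4 were at 0.30, fgf3 and fgf17 at 0.35, and fgf17 and fgf24 at 0.46. Among 10622 other genes with a symbol and a mean count of at least 50, those nearest to dusp6 over the 6 libraries were samd13 at 0.04, emc1, a subunit of the endoplasmic reticulum membrane complex, at 0.05, and sulf1, a heparan sulfate sulfatase, at 0.05. The median over all of them was 0.35.

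The remaining genes of the pathway were described by lists of ligands, receptors, transducers, other feedback and target genes, and FGF-dependent mesoderm genes. Of 53 tested genes on these lists 1 was called higher and 3 were called lower, beside 2.38% and 2.28% of Ensembl genes. Of 19 other rows of FGF ligands, 7 had no count in any library and only fgf2 passed the filter on low counts. fgf2, with a mean of 5.83 counts, was estimated at 0.71 on the log2 scale (SE 1.495, edgeR adjusted p = 0.843). It had 0, 11 and 10 counts in FZNF MO replicates 1 to 3 and 2, 0 and 12 in the scrambled MO replicates. Its log2 ratios were -1.02, 2.84 and -0.17 in the pairs. Those of pairs 1 and 2 set a count of 0 against a few counts, so their size depends on the prior count of 2.

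Of 7 receptor rows 5 were tested and 1 was called higher, beside 2.38% of Ensembl genes. This was 1 of both rows with the symbol FGFR1 (ENSDARG00000011190), at 65.3, 41.2 and 33.4 CPM in FZNF MO replicates 1 to 3 and at 30.9, 17.8 and 31.0 CPM in the scrambled MO replicates. Every FZNF MO library was above every scrambled MO library, and the groups did not overlap in 16.6% of Ensembl genes. But FZNF MO replicate 3 exceeded its own control by little, with a log2 ratio of 0.11, against 1.08 and 1.21 in pairs 1 and 2. This FGFR1 row rose by 0.80 on the log2 scale (SE 0.21, edgeR adjusted p = 0.0442), and the call ended without pair 1 (0.66, edgeR adjusted p = 0.106), without pair 2 (0.61, adjusted p = 0.454), without the block (0.81, adjusted p = 0.337) and with the collection day as the block (0.80, adjusted p = 0.390). The other FGFR1 row (ENSDARG00000011027), which a counting that shares multimapping reads may not fully separate from it, had a log2 fold change of 0.09 (SE 0.12). For fgfr4 it was 0.14 (SE 0.10).

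**Figure D3:**
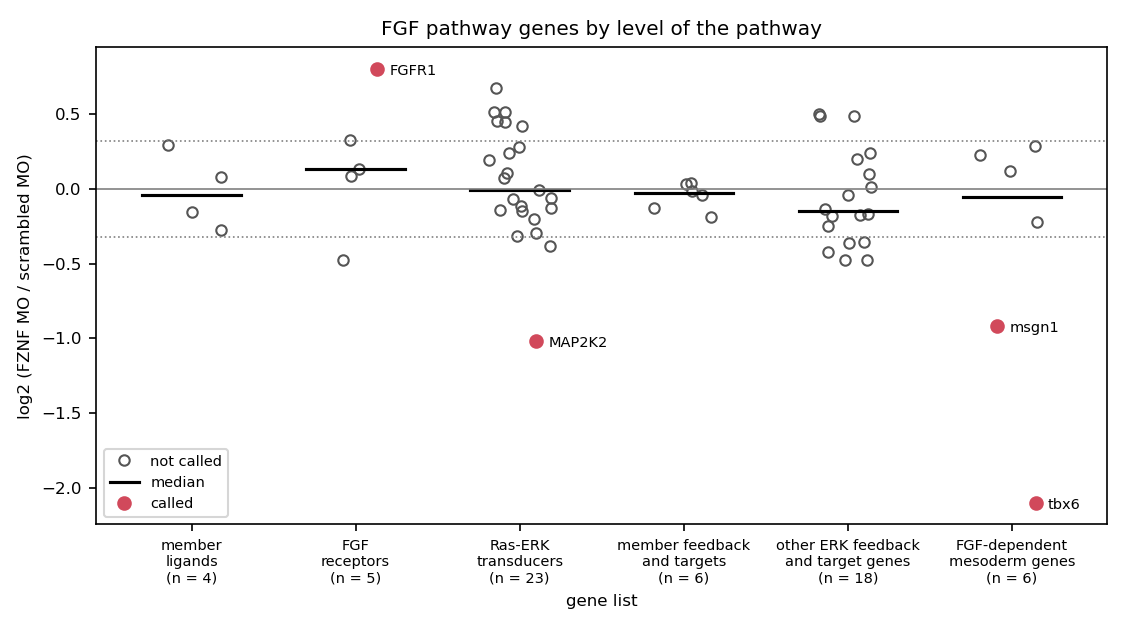
Log2 ratio of FZNF MO to scrambled MO (vertical axis) of each tested gene except fgf2, by gene list from member ligands to mesoderm genes. Filled points passed the test, open points did not, bars are medians, and dotted lines mark the fold threshold of 0.32. The member genes lie within 0.30 of 0, and the 4 called genes are FGFR1, MAP2K2, msgn1 and tbx6.

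Of 25 rows of Ras-ERK transducers 23 were tested and 1 was called lower, beside 2.28% of Ensembl genes. MAP2K2 (ENSDARG00000006609) encodes a MEK kinase that phosphorylates ERK. It was at 33.5, 40.2 and 55.7 CPM in FZNF MO replicates 1 to 3 and at 87.5, 81.9 and 86.8 CPM in the scrambled MO replicates. The FZNF MO library was lower in 3 of 3 pairs, with log2 ratios of -1.38, -1.02 and -0.64. The groups did not overlap, as in 16.6% of Ensembl genes. MAP2K2 fell by 1.02 on the log2 scale (SE 0.15, edgeR adjusted p = 0.00273), and the call ended without pair 2 (edgeR adjusted p = 0.0822), without the block (0.0639) and with the collection day as the block (0.0525), where the estimate moved by less than its SE. The paralogue map2k2b had a log2 fold change of -0.15 (SE 0.32), and the ERK gene mapk3 had a value of 0.44 (SE 0.16), neither of which passed the test. Over the 23 transducers the median log2 fold change was -0.01.

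Of 18 tested genes in the list of other feedback and target genes none was called by edgeR or DESeq2, beside 4.66% and 6.68% of Ensembl genes. An unadjusted edgeR p under 0.05 was found for 6 of them, beside 19.1% of Ensembl genes. The smallest p belonged to ier5l, an immediate early response gene, at -0.36 on the log2 scale (SE 0.12, edgeR adjusted p = 0.108). Next came spry1, a further Sprouty paralogue, estimated at 0.48 (SE 0.17, edgeR adjusted p = 0.130), with levels of 34.9, 30.7 and 22.9 CPM with the FZNF MO and of 21.7, 21.8 and 19.0 CPM with the scrambled MO. In spry1 the groups did not overlap, as in 16.6% of Ensembl genes. The PEA3 paralogue etv5a was at -0.35 on the log2 scale (SE 0.14, edgeR adjusted p = 0.167), beside those of etv4 and etv5b given above. The list's median log2 fold change was -0.15, against -0.02 over all Ensembl genes tested.

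Of 6 mesoderm genes that depend on FGF signalling in zebrafish, 2 were called lower, beside 2.28% of Ensembl genes. They were tbx6 and msgn1, which both also stand on the list of genes that rise during gastrulation. Over the 6 genes 3 log2 fold changes were positive and 3 negative, with a median of -0.05. tbx6, a T-box gene of paraxial mesoderm, was at 1.25, 3.75 and 1.92 CPM in FZNF MO replicates 1 to 3 and at 8.72, 17.7 and 4.53 CPM in the scrambled MO replicates. msgn1, a regulator of presomitic mesoderm, was at 74.8, 155 and 149 CPM with the FZNF MO and at 236, 303 and 163 CPM with the scrambled MO. In both genes the groups did not overlap, as in 16.6% of Ensembl genes. The FZNF MO library was lower in 3 of 3 pairs, and 42.5% of Ensembl genes had 1 direction in all pairs. The log2 ratios in pairs 1, 2 and 3 were -2.69, -2.21 and -1.19 for tbx6 and -1.66, -0.97 and -0.13 for msgn1, so that the difference was smallest in pair 3. tbx6 fell by 2.10 on the log2 scale (SE 0.35, edgeR adjusted p = 0.00473). msgn1 fell by 0.92 (SE 0.21, edgeR adjusted p = 0.0286), and without pair 1 it was still called lower, at -0.55. For msgn1 the effect on 17 May was higher than that on 12 May by 1.18 on the log2 scale, a difference that did not pass in edgeR. The pairs of 12 May themselves differed, at -1.66 and -0.97. As for fgf3, this comparison was chosen after the values were seen. The second day holds a single pair, so a day effect in msgn1 cannot be told apart from a pair effect.

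Neither T-box gene of the margin on the same list passed the test. tbxta, the zebrafish Brachyury gene, was estimated at 0.22 on the log2 scale (SE 0.12, edgeR adjusted p = 0.317) and tbx16, which guides mesodermal cell movement, at 0.29 (SE 0.10, edgeR adjusted p = 0.136). The calls of tbx6 and msgn1 ended without the block (adjusted p = 0.147 and 0.269 from edgeR), with the collection day as the block (0.166 and 0.335) and without pair 2 (0.144 and 0.290). In those 3 fits, which called few Ensembl genes, the log2 fold changes were between -2.17 and -2.00 for tbx6 and between -0.89 and -0.87 for msgn1. DESeq2 called tbx6 (adjusted p = 1.065e-05) and not msgn1 (adjusted p = 0.184). Control pools also differed in genes that rise during gastrulation. In scrambled MO replicates 1 to 3, hoxb1b was at 1.03, 11.9 and 0.974 CPM and sox3 at 284.7, 197.3 and 251.5 CPM. The control range of hoxb1b, 12.2-fold, was the widest among the tested genes of that list. The next was that of tbx6, at 3.91-fold, and the narrowest that of sox2, at 1.12-fold. What part embryo stage has in any of these values was not tested here. The authors compared their samples with batch-corrected samples of an earlier study, of shield stage and of an earlier and a later stage. They reported that theirs clustered with shield stage, and took their staging to be accurate.

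**Figure D4:**
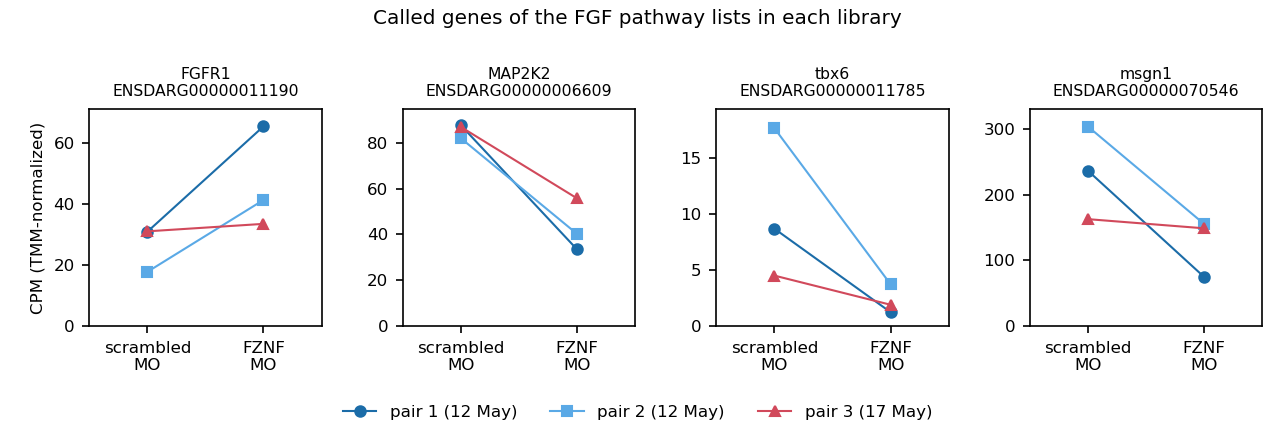
Levels in TMM-normalized CPM (vertical axes, each from 0) of the 4 called genes of the pathway lists in scrambled MO and FZNF MO libraries. Lines join the libraries of 1 injection pair. The groups do not overlap in any panel, and the line of pair 3 is nearly level for FGFR1 and msgn1.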

How the data were processed

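Per the labels and Methods, the authors ran FastQC 0.11.9 on the reads, aligned them to GRCz11 with STAR 2.7.5a, keeping multimapping reads, and used TEcount to count them against Ensembl genes, FZNF models and repeat families. The deposited values are raw counts per feature and were used as deposited. The Ensembl release was not given in the sources used here, nor was the strand setting of TEcount. Of 35218 features, 17804 passed edgeR's filterByExpr. edgeR 4.0.16 (R 4.3.3) was fitted on all of them with TMM factors, the replicate number as a block and Benjamini-Hochberg adjustment. The numbers pair the libraries, since the Methods describe repeated pairs of injections, and deviations from the group means correlated within pairs (r = 0.451, 0.327 and 0.244). No library was a copy of another (chi-square of their counts at least 20.3 per degree of freedom). Log2 ratios within pairs used a prior count of 2. Alternatives are given in the closing section, with DESeq2 1.42.0 among them. Gene names came from a table of identifiers and symbols. The members and lists were chosen with earlier results of these data known, and no list was tested as a set. Named were all members, the called genes of each pathway list or else the 2 of smallest p, and the 3 genes nearest in profile to the member of smallest p. Other genes of the lists are named for comparison and were chosen after their values were seen. The edgeR fit was tested on simulated data with 17150 features. Changes were simulated in Ensembl genes with a mean count of at least 50. It called 8% of genes with a simulated log2 change of 0.5 and 70% of those with a change of 1, beside 0.059% of unchanged features. Features were drawn independently, so shifts shared by many genes of a pool were not simulated. The shares need not hold for the real libraries. 1 gene of the pathway lists is not reported here by name.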

Additional observations from a re-analysis of the deposited data

How the results depend on the processing

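Of the 12 alternatives, 11 left 0 members called in either direction, and without replicate 3 edgeR called 1 higher, fgf3 (counts of members called higher ran from 0 to 1 over the fits that leave out 1 pair). Log2 fold changes of fgf3 ran from 0.04 to 0.72, of the tested FGF8 row from -0.24 to -0.09, of dusp6 from -0.26 to -0.07 and of fgf24 from -0.46 to -0.17, each with 1 direction in all alternatives. In fgf17, spry2, spry4, il17rd, etv4 and etv5b, none of them called, the sign changed in 1 to 3 alternatives. For the pathway lists, the fit with no replicate block called 0 higher and 0 lower, as did the collection day as the block, against 1 and 3. DESeq2 called 1 and 2. With no count filter edgeR called 2 higher, the added gene being mapk3, in a fit that called 6.28% of Ensembl genes. Over the fits without 1 pair the counts ran from 0 to 5 higher and from 0 to 4 lower. The 5 and 4, of 55 tested genes, came without replicate 3, in a fit that called 11.7% of Ensembl genes. Without replicate 3 the genes called higher included FGFR1, mapk3, shoc2 and dusp4, and cdx4 was called lower beside MAP2K2, tbx6 and msgn1. The direction of all 4 called genes was the same in every alternative. Counting error of the tested members was at most 5.04%. For the 4 called genes, the calls ended without the block, with the collection day as the block and without replicate 2, fits that called 0.372%, 0.3% and 0.42% of Ensembl genes against 4.66%.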
